A study of Homo sapiens with 27 samples.

Results

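The desmosome genes described here are the 10 symbols DSC2, DSC3, DSG1, DSG2, DSG3, DSP, JUP, PKP1, PKP2 and PKP3, chosen by name from a table of 36536 symbols or unnamed rows. Each had 1 row in the table, and all 10 passed the filter on low counts that left 15575 symbols for testing. Polyadenylated RNA was measured in MCF10A, a human breast epithelial line that is established in culture and does not form tumours. The cells had been grown with 20 ng/ml epidermal growth factor (EGF) and were then kept for 18 h without growth factors on collagen-coated plates, a history that all 9 groups shared. The T0 group was collected at 0 h, after this starvation, and the PBS group received phosphate-buffered saline for 24 h. The other 7 groups received EGF, OSM (oncostatin M, related to interleukin-6) or TGFB (transforming growth factor beta) at 10 ng/ml per ligand, either alone, as the pairs EGF+OSM, EGF+TGFB and OSM+TGFB, or all together, for 24 h. Each group had 3 libraries, 27 in all, and all come from this cell line. The labels do not say whether the 3 came from separate cultures, so p-values measure the spread between these libraries, which may be technical.

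Desmosomes are spot-like junctions that hold epithelial cells together and anchor their keratin filaments. Desmogleins and desmocollins are cadherins that bind across the gap between cells. Inside the cell, plakoglobin (JUP) and the plakophilins bind the cadherin tails, and desmoplakin (DSP) links them to keratins. In stratified epithelia some of these genes are used mainly in the basal layer and others mainly in the differentiating layers.

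Library totals ranged from 30.14 to 52.95 M (mega) estimated counts, with a median of 39.53 M. The 10 genes together took between 0.258% and 0.983% of a library's counts. The biological coefficient of variation between libraries of a group was 7.83%, and replicate pairs were further apart than sampling noise allows (chi-square over its degrees of freedom between 6.84 and 33.9 in 27 pairs). Epithelial markers summed to between 6793 and 13660 CPM (counts per M counts, with TMM scaling) in every library, with KRT5 at a mean of 6147 CPM and EPCAM at 9.96 CPM. Among markers of other cell types, several were at or near 0, with PTPRC (leukocytes) at most 0.225 CPM, COL1A2 (fibroblasts) at most 0.453 CPM and CDH5 (endothelium) at most 0.144 CPM. Others on the same lists were detected, with COL1A1 reaching 118 CPM, DCN 103 CPM, CD14 79.3 CPM, CD68 50.4 CPM and KDR 31.3 CPM in single libraries. The 7 fibroblast markers summed to 129 to 134 CPM in PBS, 204 to 214 CPM with TGFB, 13.1 to 15.3 CPM with EGF+OSM and 50.1 to 59.4 CPM with all 3 ligands. The 5 immune markers summed to 54.4 to 61.2, 34.6 to 44.6, 52.1 to 58.7 and 48.4 to 55.4 CPM in these groups. The 4 endothelial markers summed to 31.3 to 35.3, 16.7 to 19.7, 2.19 to 2.72 and 1.53 to 1.88 CPM. With EGF the fibroblast, immune and endothelial markers summed to 30.9 to 35.9, 26.1 to 29.8 and 1.54 to 2.02 CPM. With OSM these sums were 87.85 to 110.4, 96.2 to 118.9 and 2.94 to 3.66 CPM. The part of these markers in the results on the desmosome genes was not tested. In bulk RNA, fewer cells that express a gene and less of its RNA per cell cannot be told apart.

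The desmoglein and desmocollin genes lie side by side on chromosome 18 (coordinates of GENCODE v44 on GRCh38). DSC3 spans 30989365 to 31042815 and DSC2 spans 31058840 to 31102522, both on the minus strand. On the plus strand follow DSG1 at 31318160 to 31359246, DSG3 at 31447741 to 31478702 and DSG2 at 31498177 to 31549008. DSP is on chromosome 6 (7541338 to 7586714), JUP on 17 (41754604 to 41786931), PKP1 on 1 (201283452 to 201332993), PKP2 on 12 (32790745 to 32896798) and PKP3 on 11 (392614 to 404908). The annotation has antisense genes over exons of DSC2 (DSCAS), DSG1 (DSG1-AS1), DSG2 (DSG2-AS1) and DSP (DSP-AS1). The library kit kept strand, but whether the counting used it is not given in the sources used here, so for these 4 genes sense and antisense reads cannot be told apart.

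The 250 bases before the RefSeq start of the 3 desmogleins (GRCh38.p14) are printed because these genes of 1 region moved in different directions. Capitals mark the longest run of bases that the DSG1 and DSG3 windows share, and the DSG2 window is in lower case throughout.
DSG1, chr18:31317910-31318159, plus strand: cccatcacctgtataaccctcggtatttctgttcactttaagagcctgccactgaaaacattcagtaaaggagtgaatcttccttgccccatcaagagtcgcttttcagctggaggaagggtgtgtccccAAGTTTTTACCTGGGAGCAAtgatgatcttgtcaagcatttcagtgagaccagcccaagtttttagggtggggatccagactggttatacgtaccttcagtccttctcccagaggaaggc
DSG3, chr18:31447491-31447740, plus strand: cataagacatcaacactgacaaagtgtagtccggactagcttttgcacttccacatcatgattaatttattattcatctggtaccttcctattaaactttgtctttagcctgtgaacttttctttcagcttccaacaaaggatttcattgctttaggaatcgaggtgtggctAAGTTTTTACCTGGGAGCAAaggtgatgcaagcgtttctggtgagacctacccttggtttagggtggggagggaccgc
DSG2, chr18:31497927-31498176, plus strand: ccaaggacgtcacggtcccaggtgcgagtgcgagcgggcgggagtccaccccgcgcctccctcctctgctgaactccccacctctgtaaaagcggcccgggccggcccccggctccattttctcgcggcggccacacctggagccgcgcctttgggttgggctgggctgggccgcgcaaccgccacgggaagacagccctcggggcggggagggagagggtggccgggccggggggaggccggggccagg
The shared run of DSG1 and DSG3 was 20 bases long and began 120 bases before the start in DSG1 and 78 bases before it in DSG3. The longest run that the DSG2 window shared was 7 bases with DSG1 and 9 bases with DSG3. The windows also differed in base composition, with a GC content of 48.0% for DSG1, 42.8% for DSG3 and 75.2% for DSG2, beside a median of 58.0% over 35116 promoters. RefSeq windows matched for 8 of the 10 genes, with 10 start sites in all. CAGGTG, the E-box bound by SNAI and ZEB factors, was found on either strand in 5 of these 10 windows (of DSC2, DSG1, DSG2, DSP and JUP), against 17.5% of all promoters. TGANTCA, the AP-1 site, was in 0 of the 10 windows (6.57% of all promoters), TTCNNNGAA, the STAT site, was in 1, a DSC2 window (6.57%), and CAGAC, the SMAD element, was in 3, of DSC2, DSG1 and PKP1 (38.0%). No match overlapped a match of another motif, and a match is a description of the sequence, not a binding site.

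DSP and JUP had the highest RNA levels per length of transcript, and PKP1 and DSG1 the lowest. In PBS, DSP was at 447 ± 30.2 CPM per kb of its GENCODE canonical transcript (SD, n = 3), JUP at 338 ± 19.8 and DSG3 at 279 ± 8.54. DSG2 followed at 76.7 ± 6.41, DSC3 at 67.2 ± 2.99, PKP3 at 47.9 ± 3.42, DSC2 at 36.1 ± 1.20 and PKP2 at 9.32 ± 0.473 CPM per kb. DSG1 and PKP1, both best known from differentiating layers of epidermis, were at 1.39 ± 0.301 and 1.498 ± 0.0350 CPM per kb. The lengths are of 1 transcript a gene, 12.3 kb for DSC2, and the transcripts used in the cells may differ. Summed over the 10 genes, the level was 1304 ± 37.5 CPM per kb in PBS and 1342 ± 27.1 with TGFB. It was 639.8 ± 44.7 with EGF, 834 ± 64.8 with OSM, and 463 ± 33.3 in the EGF+OSM group, the lowest of the 9 groups. With all 3 ligands the sum was 734 ± 55.2 CPM per kb.

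**Figure D1:**
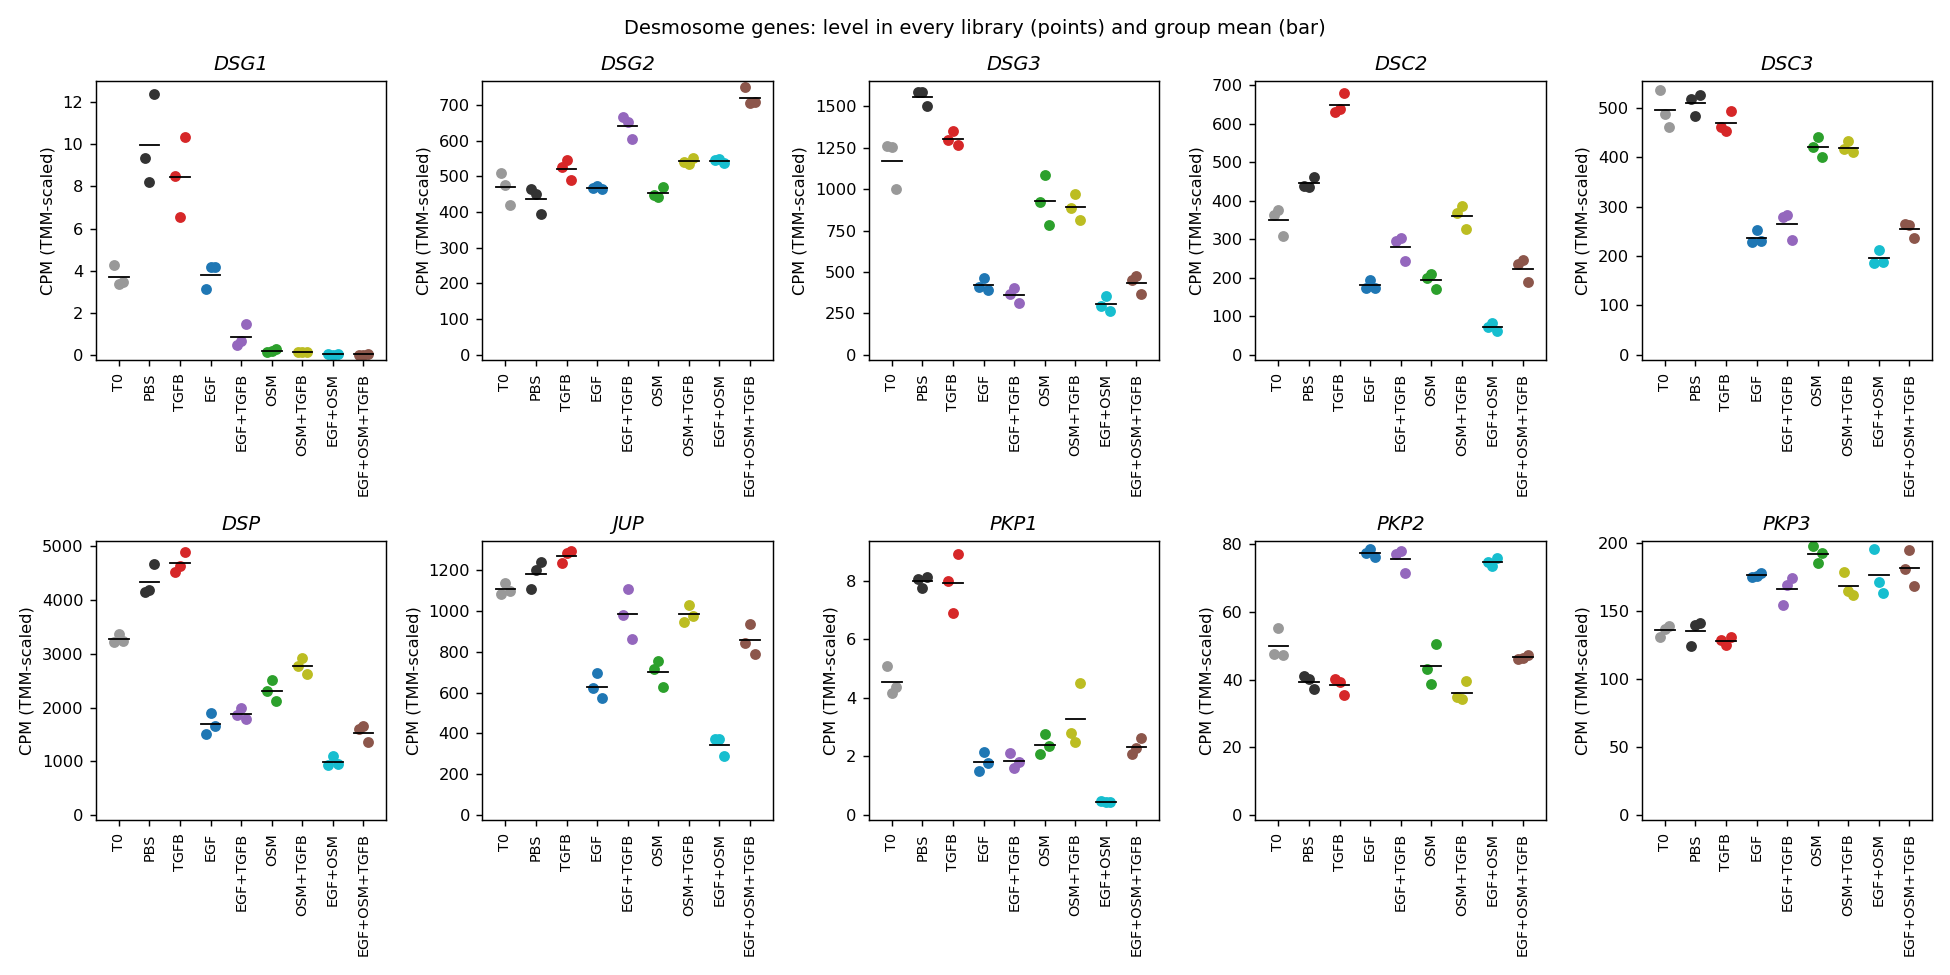
Level of each desmosome gene in every library (points) and the group mean (bar), in TMM-scaled CPM on a linear axis from 0, for the 9 groups of 3 libraries. The EGF+OSM libraries are the lowest for DSC2, DSC3, DSP, JUP and PKP1, while DSG2, PKP2 and PKP3 are not lowered by it.

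EGF and OSM each lowered most of these genes, and both together lowered them most. With EGF, 9 of the 10 were called, that is, had an adjusted p below 0.05 (quasi-likelihood test of edgeR with Benjamini-Hochberg adjustment over all symbols tested, as for all adjusted p-values here), against 73.5% of all symbols tested. Of these, 7 fell (38.6% of all symbols did) and 2 rose (34.9%). With OSM 8 were called against 63.4% of symbols, with 7 lower (29.8%) and 1 higher (33.5%). With EGF+OSM all 10 were called against 77.2%, with 7 lower (39.6%) and 3 higher (37.6%). So many symbols changed in this experiment that the share of genes called is near the background. The median log2 fold change over the 10 genes was -1.20 with EGF, -0.75 with OSM and -1.96 for the EGF+OSM pair, and over all symbols tested it was -0.072, 0.0023 and -0.049.

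DSG3, a desmoglein of basal and lower layers, was at 1586, 1583 and 1502 CPM in the PBS libraries. It was at 410.5, 464.5 and 391.6 CPM with EGF, at 921, 1084 and 782 CPM with OSM and at 297, 356 and 266 CPM with EGF+OSM. Every library with EGF or OSM was below every PBS library. The log2 fold change was -1.88 ± 0.13 (SE; adjusted p = 1.84e-11) with EGF, -0.75 ± 0.13 (adjusted p = 2.38e-05) with OSM and -2.35 ± 0.13 (adjusted p = 3.41e-13) with the pair. EGF lowered it further than OSM did, and OSM minus EGF was 1.14 ± 0.13 (adjusted p = 1.28e-07). Adding OSM to EGF lowered it by a further -0.46 ± 0.13 (adjusted p = 0.00685), a call that was lost without the third EGF+OSM library (-0.37, adjusted p = 0.0516).

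DSG2, the desmoglein found most widely across epithelia, was at 464, 451 and 395 CPM in PBS and was called lower in no ligand group. It was at 468, 473 and 465 CPM with EGF and at 448, 441 and 472 CPM with OSM. The OSM values overlapped PBS, and the lowest EGF library lay just above the highest PBS library. With EGF the log2 fold change was 0.10 ± 0.061 (adjusted p = 0.134), which passed without the first PBS library (0.15, adjusted p = 0.0494). With EGF+OSM it was at 546, 549 and 537 CPM, above every PBS library (log2 fold change 0.32 ± 0.061, adjusted p = 4.55e-05). The highest group was EGF+OSM+TGFB, at 749.6, 705 and 708 CPM (0.72 ± 0.061, adjusted p = 6e-11).

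DSG1, the desmoglein of differentiating layers, was scarce, at 9.36, 8.20 and 12.4 CPM in PBS. It was at 3.12, 4.15 and 4.17 CPM with EGF (-1.39 ± 0.25, adjusted p = 1.94e-05) and at 0.114, 0.200 and 0.270 CPM with OSM (-5.65 ± 0.36, adjusted p = 7.61e-13). OSM lowered it more than EGF did, with a difference of -4.26 ± 0.37 (adjusted p = 5.17e-10). The 3 EGF+OSM libraries held 3 counts in all and the 3 EGF+OSM+TGFB libraries 2, against 1261 in PBS. Relative to PBS that is 0.254% (95% exact Poisson interval 0.0522% to 0.742%) and 0.199% (0.0241% to 0.720%), where the intervals cover counting error only. Of the 3 counts with EGF+OSM, 2 were in replicate 1 and 1 in replicate 3, and both counts with all 3 ligands were in replicate 3. Left without these libraries, the fitted log2 fold change went from -8.46 to -9.35 (without EGF+OSM replicate 1) and from -8.77 to -11.65 (without EGF+OSM+TGFB replicate 3), so at these counts it gives no measure of size. TGFB added to EGF lowered DSG1 further, from 519 counts in all with EGF to 92, a log2 fold change of -2.20 ± 0.30 (adjusted p = 8.57e-07).

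The make-up of the desmogleins thus differed between groups. Per length of transcript, DSG2 was 21.4% ± 0.94 of the desmoglein total in PBS (SD, n = 3) and DSG3 78.2% ± 0.849. The DSG2 share was 32.6% ± 4.33 with OSM, 52.0% ± 1.99 with EGF and 63.6% ± 3.17 with EGF+OSM. With EGF+TGFB it was 63.6% ± 2.04, and with all 3 ligands 62.2% ± 3.06. DSG3 was the larger part in T0, PBS, TGFB, OSM and OSM+TGFB, and the 4 groups with EGF ranged from 49.8% to 66.4% DSG2 over single libraries.

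**Figure D2:**
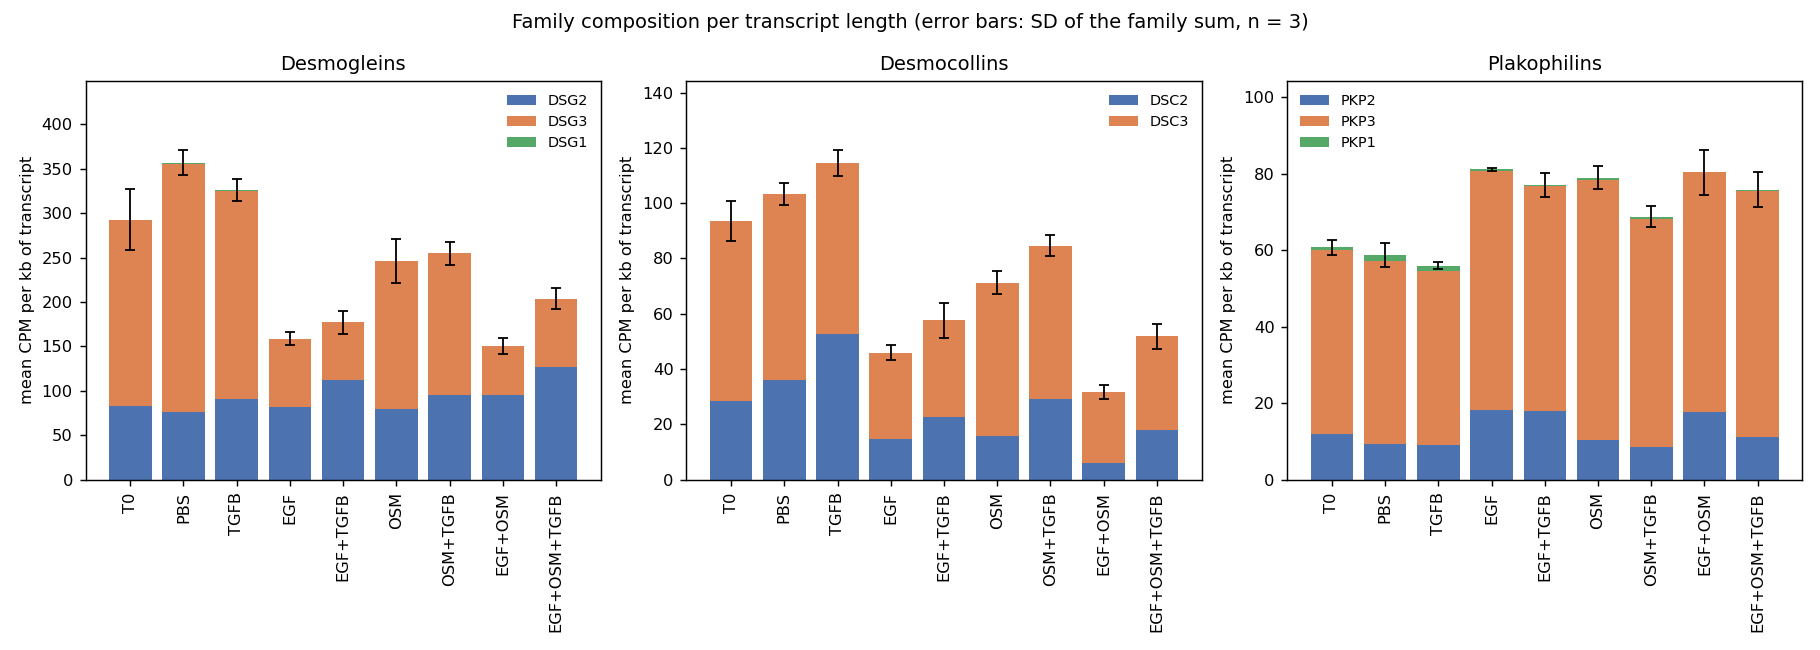
Mean CPM per kb of transcript of the desmogleins, desmocollins and plakophilins in the 9 groups, stacked by gene, with the SD of the family sum over 3 libraries as error bars on axes from 0. DSG3 shrinks and DSG2 does not in the groups with EGF, DSC2 is the desmocollin with the widest range, and the plakophilin sum is higher with EGF or OSM than in PBS.

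Of the desmocollins, DSC2 had the wider range. It was at 437, 436 and 462 CPM in PBS, at 174, 195 and 173 CPM with EGF, at 199, 211 and 171 CPM with OSM and at 71.7, 83.6 and 61.2 CPM for EGF+OSM. The groups did not overlap PBS, and the EGF+OSM libraries were below all others. The log2 fold change was -1.30 ± 0.11 with EGF (adjusted p = 6.47e-10), -1.20 ± 0.11 with OSM (adjusted p = 3.62e-09) and -2.62 ± 0.12 with the pair (adjusted p = 4.93e-15). DSC3, the partner of DSG3 in basal layers, was at 518, 484 and 526 CPM in PBS and at 228, 252 and 230.1 CPM with EGF. With OSM it was at 421, 442 and 402 CPM, and with EGF+OSM at 187, 212 and 189 CPM. It fell by 1.104 ± 0.072 on the log2 scale with EGF (adjusted p = 4.48e-13) and by 0.27 ± 0.071 with OSM (adjusted p = 0.00153). OSM minus EGF was 0.83 ± 0.071 for DSC3 (adjusted p = 3.15e-10), while for DSC2 it was 0.098 ± 0.11 (adjusted p = 0.482). The DSC2 share of the total of DSC2 and DSC3 per length was 35.0% ± 0.772 in PBS (SD, n = 3). EGF left it at 31.9% ± 0.290, and it was 22.0% ± 1.102 for OSM and 18.4% ± 1.55 for EGF+OSM.

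In the plaque, DSP was at 4150.0, 4185 and 4674 CPM in PBS. It was at 1509, 1902 and 1666 CPM with EGF, at 2303, 2519 and 2116 CPM with OSM and at 925, 1096 and 940.4 CPM with EGF+OSM. The pair's libraries were below all libraries of the single ligands, and these were below PBS. The log2 fold change was -1.36 ± 0.085 with EGF (adjusted p = 3.07e-13), -0.91 ± 0.084 with OSM (adjusted p = 7.86e-10) and -2.13 ± 0.087 with the pair (adjusted p = 5.62e-17). JUP, which also occurs in adherens junctions, was at 1106, 1202 and 1241 CPM in PBS and at 372, 374 and 290.0 CPM with EGF+OSM. It fell by 0.91 ± 0.095 with EGF (adjusted p = 6.72e-09), by 0.76 ± 0.095 with OSM (adjusted p = 1.96e-07) and by 1.78 ± 0.097 with the pair on the log2 scale (adjusted p = 3.39e-14).

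The plakophilins, armadillo-repeat proteins that cluster the cadherins, split. PKP1, the plakophilin of upper epidermal layers, was at 8.06, 7.77 and 8.11 CPM in PBS and at 0.488, 0.442 and 0.430 CPM with EGF+OSM, a log2 fold change of -4.13 ± 0.21 (adjusted p = 3.52e-15). EGF alone gave -2.13 ± 0.18 (adjusted p = 5.32e-11) and OSM alone -1.73 ± 0.17 (adjusted p = 2.93e-09). PKP2, the plakophilin of simple epithelia and heart, was at 41.0, 40.2 and 37.2 CPM in PBS and at 77.4, 78.7 and 76.2 CPM with EGF, which did not overlap. It rose by 0.97 ± 0.075 with EGF (adjusted p = 1.26e-11) and by 0.92 ± 0.075 with EGF+OSM (adjusted p = 2.36e-11). With OSM alone PKP2 was 0.16 ± 0.076 higher (adjusted p = 0.0683), a value that passed without the second OSM library (0.25, adjusted p = 0.00637). PKP3, present in most epithelia, was at 124, 140 and 141 CPM in PBS, at 175, 175 and 178 CPM with EGF and at 197, 185 and 193 CPM with OSM. It rose by 0.38 ± 0.064 with EGF (adjusted p = 6.92e-06), by 0.51 ± 0.064 with OSM (adjusted p = 1.46e-07) and by 0.39 ± 0.064 with the pair (adjusted p = 5.38e-06). PKP3 was 81.5% ± 1.66 of the plakophilin total per length in PBS, and the summed plakophilin level was 58.7 ± 3.07 CPM per kb in PBS and 80.4 ± 5.91 with EGF+OSM (SD, n = 3).

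**Figure D3:**
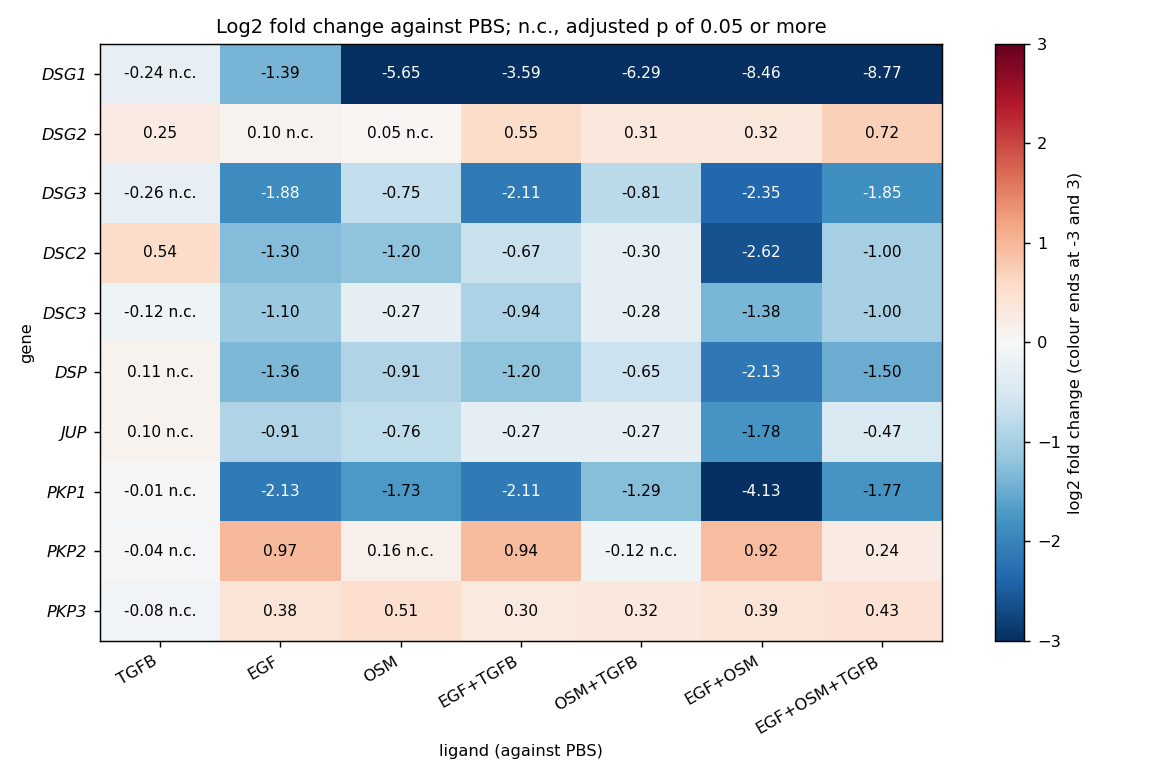
Log2 fold change against PBS of the 10 genes (rows) in the 7 ligand groups (columns), with the value in each cell and n.c. where the adjusted p was 0.05 or more. DSC2, DSC3, DSG1, DSG3, DSP, JUP and PKP1 are below 0 in every group with EGF or OSM, and DSG2 and PKP3 are above 0 there.

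The study asks whether ligands given together act as the total of what each does alone. To measure this, the log2 fold changes of the ligands given alone were subtracted from that of the combination, all taken against the same PBS libraries, and the remainder is called the departure, which is 0 where they add up. For EGF+OSM, 1 of the 10 genes departed (38.7% of all symbols did), with 0 upward (15.7%) and 1 downward (23%). This was PKP3, at -0.50 ± 0.090 (adjusted p = 7.01e-05), since EGF and OSM each raised it and the pair raised it no further. For DSC2 the departure was -0.12 ± 0.16 (adjusted p = 0.59), for DSP 0.13 ± 0.12 (adjusted p = 0.422) and for JUP -0.11 ± 0.13 (adjusted p = 0.56), so a departure was not detected within these errors, which does not show that none exists. The count was 2 without the second OSM library, where PKP2 was added (-0.30, adjusted p = 0.0207), or without the third PBS library, where DSG2 was (0.23, adjusted p = 0.0371). For all 3 ligands, 9 of the 10 genes departed (48% of all symbols did), 7 of them upward (22%) and 2 downward (25.9%). The upward departures were largest for PKP1 (2.09 ± 0.34, adjusted p = 1.32e-05), JUP (1.099 ± 0.19, adjusted p = 3.06e-05), DSG3 (1.03 ± 0.25, adjusted p = 0.00162) and DSC2 (0.96 ± 0.22, adjusted p = 0.000994). DSP departed by 0.65 ± 0.17 (adjusted p = 0.00201) and DSC3 by 0.50 ± 0.14 (adjusted p = 0.00475). Each of these 6 genes thus fell less than the single responses add up to. DSG2 rose more (0.32 ± 0.12, adjusted p = 0.035), and PKP2 and PKP3 rose less (-0.85 ± 0.15, adjusted p = 4.75e-05, and -0.39 ± 0.13, adjusted p = 0.0142). The DSG2 call was lost when any of 7 libraries was left out, namely EGF replicate 3, EGF+OSM+TGFB replicate 1, OSM replicate 1 or 2, PBS replicate 1 or 2, or TGFB replicate 3 (lowest at 0.22, adjusted p = 0.187, without PBS replicate 1), and the PKP3 call without the first PBS library (-0.27, adjusted p = 0.108).

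**Figure D4:**
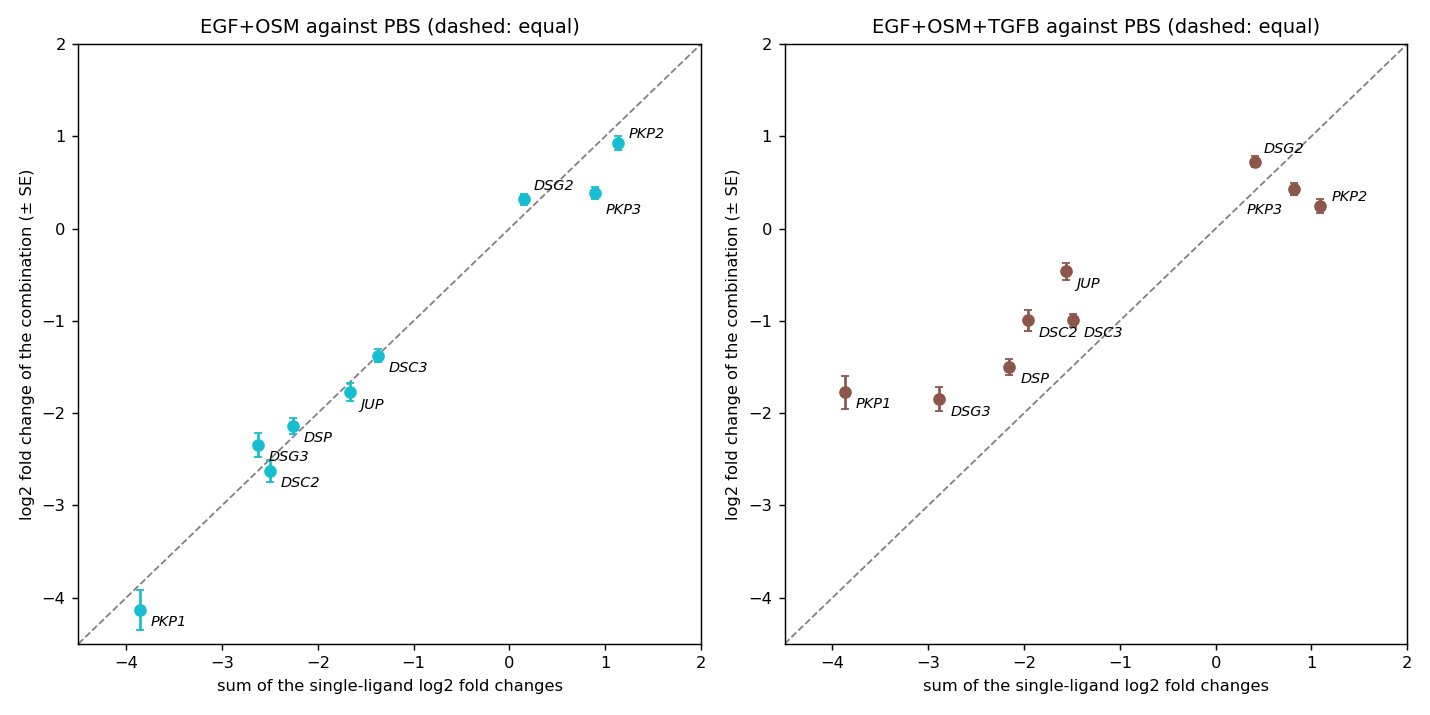
Log2 fold change of the combination against PBS (vertical, ± SE) and the sum of the single-ligand log2 fold changes (horizontal) for 9 of the genes, DSG1 left out for its low counts; the dashed line marks equality. With EGF+OSM the points lie near the line except PKP3, and with all 3 ligands the genes that fell lie above it.

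For the pairs with TGFB, the number of genes that departed in either direction was near or below the share over all symbols. For EGF+TGFB 3 of the 10 departed (29.8% of all symbols), 2 upward (13.3%) and 1 downward (16.5%). JUP departed by 0.54 ± 0.13 (adjusted p = 0.00349), DSC3 by 0.28 ± 0.10 (adjusted p = 0.0381) and DSG1 by -1.96 ± 0.38 (adjusted p = 0.000385). The DSC3 call was lost when any of 8 libraries was left out, namely EGF replicate 1 or 3, EGF+TGFB replicate 1 or 2, PBS replicate 1 or 3, or TGFB replicate 1 or 2 (0.23, adjusted p = 0.124, without EGF+TGFB replicate 2). For OSM+TGFB 1 gene departed (23.3%), upward (9.61%), with 0 downward (13.7%). This was JUP, by 0.39 ± 0.13 (adjusted p = 0.0362). It was lost when any of 8 libraries was left out, namely OSM replicate 3, OSM+TGFB replicate 2 or 3, PBS replicate 2 or 3, or any TGFB replicate (0.32, adjusted p = 0.111, without OSM replicate 3).

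TGFB alone changed few of the desmosome genes. Of the 10, 2 were called against 35.6% of all symbols, both higher (19.9%) and 0 lower (15.8%), and the median log2 fold change was -0.025 beside -0.0087 over all symbols. DSC2 was at 629, 638 and 679.6 CPM with TGFB, above every library of the other 8 groups, and rose by 0.54 ± 0.11 on the log2 scale (adjusted p = 0.00048). DSG2 rose by 0.25 ± 0.061 (adjusted p = 0.00196). DSP was 0.11 ± 0.083 higher (adjusted p = 0.325) and JUP 0.10 ± 0.094 higher (adjusted p = 0.431), within the spread. DSG3 was at 1295, 1351 and 1264 CPM, below the 3 PBS libraries, with a log2 fold change of -0.26 ± 0.13 (adjusted p = 0.122). A fit to the TGFB and PBS libraries alone gave DSG3 the same size of change with an adjusted p of 0.000707. In that fit, and in a fit to all libraries with a replicate block, 3 genes were called, with DSG3 lower.

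Added to EGF+OSM, TGFB raised most of them. In EGF+OSM+TGFB against EGF+OSM, 8 of the 10 genes were called (61.1% of all symbols were), 7 higher (31.6%) and 1 lower (29.5%), and the median was 0.45 beside 0.023 over all symbols. PKP1 went from 0.453 ± 0.0304 to 2.34 ± 0.279 CPM (SD, n = 3), which is 2.36 ± 0.23 on the log2 scale (adjusted p = 2.14e-09). The EGF+OSM libraries held only 18, 19 and 17 PKP1 counts, so the SD of 0.0304 CPM may understate the error. DSC2 was at 236, 246 and 189 CPM with all 3 ligands, every library above the EGF+OSM libraries, and rose by 1.63 ± 0.12 (adjusted p = 5.15e-11). JUP was at 844, 937 and 790.0 CPM with all 3 and rose by 1.31 ± 0.096 (adjusted p = 3.21e-11). DSP, at 1595, 1648 and 1356 CPM, rose by 0.64 ± 0.084 (adjusted p = 3.64e-07), DSG3 by 0.49 ± 0.13 (adjusted p = 0.00189), DSG2 by 0.41 ± 0.061 (adjusted p = 2.33e-06) and DSC3 by 0.38 ± 0.071 (adjusted p = 4.55e-05). PKP2 went the other way, from 74.8 ± 1.11 to 46.6 ± 0.566 CPM (-0.68 ± 0.075, adjusted p = 1.68e-08). Against PBS all 10 genes were still called (74.4% of all symbols were), 7 lower (36.7%) and 3 higher (37.7%), with DSP at -1.50 ± 0.085 (adjusted p = 2.77e-14) and JUP at -0.47 ± 0.094 (adjusted p = 0.000107). The PKP2 rise against PBS (0.24 ± 0.076, adjusted p = 0.00645) did not pass with upper-quartile scaling (0.15, adjusted p = 0.0846).

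The effect of TGFB on EGF+OSM and on PBS was compared directly, in a contrast chosen after the data had been seen. The difference passed for 7 of the 10 genes (44.4% of all symbols), 6 of them higher on EGF+OSM (21.3%) and 1 lower (23.1%). It was 2.36 ± 0.28 for PKP1 (adjusted p = 3.14e-07), 1.21 ± 0.13 for JUP (adjusted p = 1.58e-07), 1.08 ± 0.16 for DSC2 (adjusted p = 9.76e-06) and 0.52 ± 0.12 for DSP (adjusted p = 0.000784). DSG2, raised by TGFB on both, differed by 0.16 ± 0.086 (adjusted p = 0.152). This difference passed without the third PBS library (0.22, adjusted p = 0.0361).

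**Figure D5:**
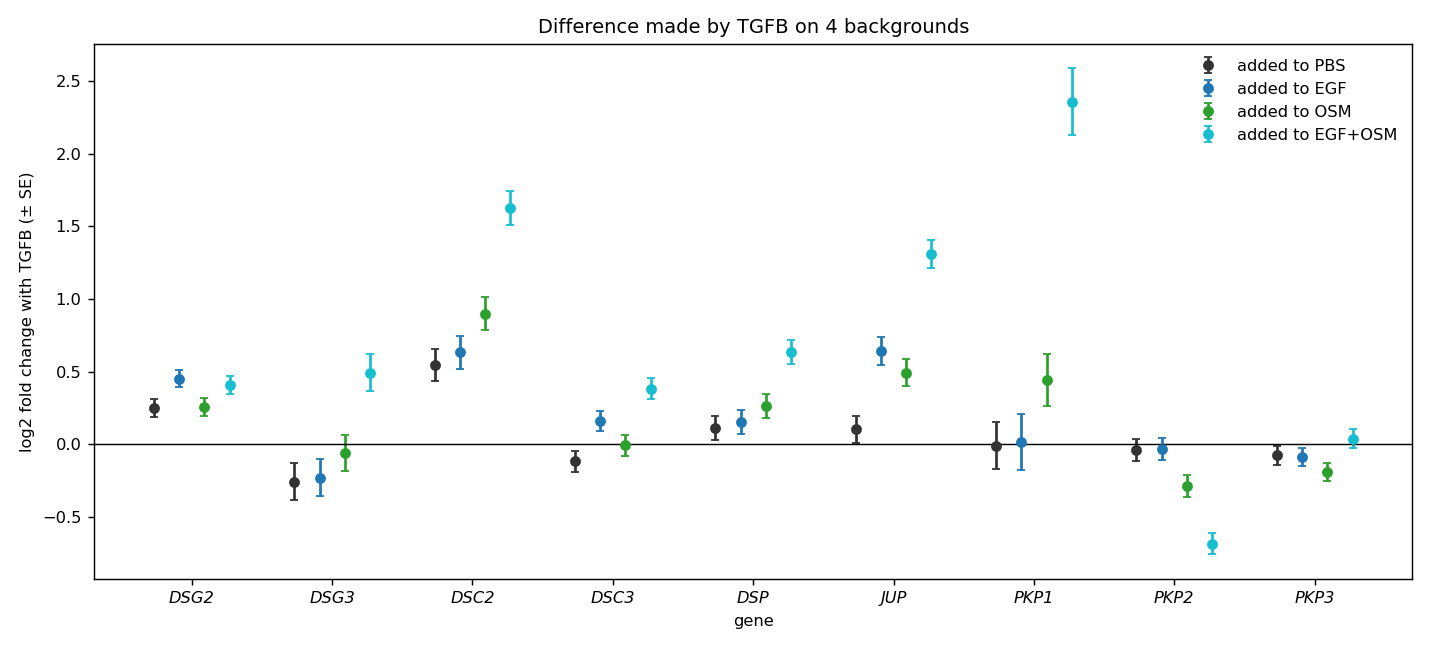
Log2 fold change with TGFB (± SE) when added to PBS, EGF, OSM or EGF+OSM, for 9 of the genes, DSG1 left out for its low counts. The points for EGF+OSM are the highest of the 4 for DSC2, DSC3, DSG3, DSP, JUP and PKP1 and the lowest for PKP2.

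On EGF alone, TGFB changed 4 of the 10 genes (54.6% of all symbols), 3 higher (27%) and 1, DSG1, lower (27.7%). JUP went from 621, 694 and 575 CPM to 980.0, 1107 and 863 CPM, a rise of 0.64 ± 0.094 on the log2 scale (adjusted p = 3.53e-06). DSC2 rose by 0.63 ± 0.11 (adjusted p = 5.17e-05) and DSG2 by 0.45 ± 0.061 (adjusted p = 7.55e-07). On OSM alone, 7 of the 10 were called (51.6%), 5 higher (26.1%) and 2 lower (25.6%). DSC2 rose by 0.90 ± 0.11 (adjusted p = 6.31e-07), JUP by 0.49 ± 0.094 (adjusted p = 0.000112) and DSG2 by 0.26 ± 0.061 (adjusted p = 0.000962), and PKP2 fell by 0.28 ± 0.077 (adjusted p = 0.00293). The other 3 calls were each lost when 1 of several libraries was left out. With DESeq2, upper-quartile scaling, no filter on low counts or only the groups compared, 6 genes were called, 4 of them higher. DSP (0.26, adjusted p = 0.0107) was lost without the third OSM library (0.20, adjusted p = 0.0724) or the second OSM+TGFB library (0.22, adjusted p = 0.0545). PKP1 (0.44, adjusted p = 0.0436) was lost without the third OSM+TGFB library (0.14, adjusted p = 0.528), the first OSM library (0.35, adjusted p = 0.157) or the third OSM library (0.43, adjusted p = 0.0933), and PKP3 (-0.19, adjusted p = 0.0145) without the first OSM library (-0.17, adjusted p = 0.057), OSM+TGFB replicate 2 (-0.17, adjusted p = 0.0539) or OSM+TGFB replicate 3 (-0.16, adjusted p = 0.0683). Against PBS, EGF+TGFB left all 10 genes called (73.7%), 7 lower (37.5%) and 3 higher (36.2%), and OSM+TGFB 9 (66%), 7 lower (31.8%) and 2 higher (34.2%). JUP was close to PBS in both, at -0.27 ± 0.094 with EGF+TGFB (adjusted p = 0.014) and -0.27 ± 0.094 with OSM+TGFB (adjusted p = 0.0163). The first was lost without the third EGF+TGFB library (-0.15, adjusted p = 0.166) or the third PBS library (-0.23, adjusted p = 0.0584), and the second without the first OSM+TGFB library (-0.24, adjusted p = 0.0609) or the third PBS library (-0.23, adjusted p = 0.0664). DSC2 with OSM+TGFB (-0.30 ± 0.11, adjusted p = 0.0212) was likewise lost without the third OSM+TGFB library (-0.24, adjusted p = 0.104) or the third PBS library (-0.27, adjusted p = 0.0664).

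Between T0 and PBS, over the further 24 h without growth factors, 6 of the 10 genes were called (35.1% of all symbols), 5 higher in PBS (16.2%) and 1 lower (18.9%). DSG1 rose from 3.69 ± 0.493 to 9.98 ± 2.17 CPM (SD, n = 3), which is 1.43 ± 0.25 on the log2 scale (adjusted p = 6.26e-05). PKP1 rose by 0.81 ± 0.16 (adjusted p = 0.000365), and DSP, at 3217, 3361 and 3238 CPM in T0, by 0.41 ± 0.084 (adjusted p = 0.000438). PKP2 fell by 0.35 ± 0.075 (adjusted p = 0.000758). DSG3 rose by 0.41 ± 0.13 (adjusted p = 0.0143), which was lost without the third T0 library (0.31, adjusted p = 0.0931), and DSC2 by 0.35 ± 0.11 (adjusted p = 0.0175), which was lost without that library (0.27, adjusted p = 0.104) or the third PBS library (0.32, adjusted p = 0.0599). Because these genes moved over time without ligand, the T0 level differs from the PBS level against which the ligands were compared. The PBS cells had also been plated for 24 h longer than the T0 cells, which cannot be told apart from the longer starvation. With EGF, DSP was below its T0 libraries too, and DSG1 overlapped them.

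Between the pair and its single ligands, EGF+OSM differed from EGF in 8 of the 10 genes (34.9% of all symbols), 7 lower (17.1%) and 1, DSG2, higher (17.8%). The falls included PKP1 (-2.00 ± 0.23, adjusted p = 1.42e-07), DSC2 (-1.32 ± 0.12, adjusted p = 5.06e-09), JUP (-0.87 ± 0.095, adjusted p = 1.12e-07) and DSP (-0.78 ± 0.084, adjusted p = 5.58e-08). From OSM it differed in 9 (61.7%), 7 lower (31.8%) and 2 higher (29.9%), with DSG3 at -1.60 ± 0.13 (adjusted p = 9.15e-10) and PKP2 at 0.76 ± 0.075 (adjusted p = 3.72e-09). OSM and EGF alone differed from each other in 5 (56.8%). Of these DSC3, DSG3 and DSP were higher with OSM (28% of all symbols were) and DSG1 and PKP2 higher with EGF (28.8%). DSP was 0.45 ± 0.084 higher with OSM (adjusted p = 5.77e-05).

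Genes of neighbouring systems were counted from lists of names. Of all symbols tested, 39.6% fell and 37.6% rose with EGF+OSM (median -0.049), and 36.7% fell and 37.7% rose with all 3 ligands (median 0.00036). Of 8 further desmosome-associated genes, 6 fell and 1 rose with EGF+OSM, with a median log2 fold change of -3.44. PPL (periplakin, a plakin of the cornified layer) averaged 804 ± 56.6 CPM in PBS, 149.9 ± 23.8 after EGF, 192 ± 47.1 after OSM, 38.3 ± 10.8 after EGF+OSM and 34.9 ± 10.2 after all 3 ligands (SD, n = 3). DSG4 (a desmoglein of the hair follicle) was at 38.3 ± 5.24 CPM in PBS, and its level was 4.95 ± 0.837 after EGF and 0.0735 ± 0.0417 after OSM. CDSN (corneodesmosin) was at 17.6 ± 5.57 CPM in PBS and 0.259 ± 0.215 with EGF+OSM, and DSC1 was below 1 CPM in PBS (0.574 ± 0.0224). Of 9 hemidesmosome genes, which anchor cells to the basement membrane, 7 rose and 1 fell with EGF+OSM, and 8 rose and 1 fell with all 3 ligands (median 1.74). LAMB3, a laminin chain of the basement membrane, was at 363 ± 15.9 CPM in PBS, 1594 ± 305 with EGF+OSM and 5894 ± 246 with all 3. ITGB4, the integrin chain of hemidesmosomes, was at 996.5 ± 29.6, 1831 ± 231 and 3329 ± 288 CPM in the same groups. Of 12 epithelial transcription factors 11 were tested (GRHL2 did not pass the filter on low counts), and 10 fell and 1 rose with EGF+OSM (median -2.59). OVOL1 was at 25.2 ± 3.23 CPM in PBS, 1.25 ± 0.142 with EGF+OSM and 3.43 ± 0.412 with all 3, and EHF at 306 ± 17.02, 23.8 ± 4.55 and 11.4 ± 3.17 CPM.

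Over the 9 group means, several of which have a ligand in common, most of the genes that fell followed each other. The correlation of mean log2 CPM was 0.98 for DSC3 and DSG3, 0.97 for DSC2 and JUP and 0.96 for DSP and PKP1, the highest among the genes that fell (Pearson's r, 9 groups, given as a description). DSG1 followed the other 6 less closely, from 0.55 with DSC3 to 0.74 with DSP. For DSG3 and PKP2 it was -0.82 and for DSG2 and DSG3 -0.61. Among 10484 protein-coding symbols with a mean of at least 5 CPM, the patterns most like DSP were those of PLXNB1 (r = 0.997), GTF2IRD1 (0.996) and WHRN (0.993). Those most like DSG1 were SPRR1A (0.996), SPRR3 (0.996) and SBSN (0.995), which encode proteins of cornifying epithelium. For DSC2 they were CYB561D1 (0.988), SPINT1 (0.983) and TMEM159 (0.981), for JUP EVI5L (0.996), PINK1 (0.993) and BORCS6 (0.989), and for PKP1 ERBB2 (0.982), MFSD11 (0.980) and EXD3 (0.978). For DSC3 they were RNF123 (0.996), ATF6B (0.994) and ZBTB43 (0.994), and for DSG3 FBXL20 (0.993) and TBCK (0.992). For the genes that rose they were SNAP23 (0.980), HERC3 (0.978) and UBR1 (0.977) with DSG2, ME2 (0.980), PAQR5 (0.977) and ITPK1 (0.972) with PKP2, and SH3TC1 (0.954), POFUT1 (0.950) and TEAD4 (0.943) with PKP3.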

How the data were processed

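RNA-seq of 27 MCF10A libraries in 9 groups of 3 was assigned to groups by the sample titles. Libraries were made with a stranded kit for polyadenylated RNA, per the labels' protocols. The authors deposited a table of 40487 Ensembl genes with whole numbers, and these deposited values were treated as estimated counts from the authors' processing because the submitters' processing notes name kallisto 0.46.2, beside Trim Galore 0.4.3, cutadapt 1.10, FastQC 0.11.5, R 3.5.0 and the builds GRCh38.p5 and hg38. How the values were rounded and summed to genes is not given in the sources used here, and rounding them changed nothing.

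Rows sharing a symbol were summed. Symbols were filtered with filterByExpr by group, scaled by TMM, the trimmed mean of M (factors 0.867 to 1.12) and fitted in edgeR 4.0.16 (R 4.3.3) with a mean per group over all 27 libraries, 18 residual degrees of freedom and robust quasi-likelihood (glmQLFit, glmQLFTest). The TMM factors differed between groups, at 1.08 to 1.12 in PBS, 0.871 to 0.888 with OSM+TGFB and 0.867 to 0.891 with all 3 ligands. Small changes against PBS in those groups, such as DSG2 and PKP3 with OSM+TGFB (0.31 and 0.32), depend on this scaling. Benjamini-Hochberg adjustment ran over all 15575 symbols tested, and calls needed an adjusted p below 0.05. Fold changes used a prior count of 0.125. Standard errors are the log2 fold change divided by the root of the F statistic. The test was also run on counts simulated with the fitted dispersions, with a small set of genes changed in the EGF group only. In the real data far more symbols changed, so that run cannot check the scaling or the error rates here. CPM per kb used GENCODE v44 canonical transcript lengths, and promoter windows came from RefSeq (GRCh38.p14).

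The 10 genes, the lists and the contrasts were chosen with earlier results of these data known. All 10 genes are named. From each list at most 4 genes are named, those with the largest change against PBS among those called, and for likeness the 3 symbols with the highest Pearson correlation per gene. Some of the genes these rules name are not reported here. The alternatives were RLE and upper-quartile scaling, no filter, rows not summed, only the groups compared, a replicate block, DESeq2 1.42.0 and leaving out each library. Total counts per library (30.14 to 52.95 M) leave few counts for DSG1 and PKP1.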

Additional observations from a re-analysis of the deposited data

Results flagged for a closer look

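For 4 of the values, the effect of a ligand had opposite signs on the backgrounds compared, and a test of the difference itself passed. Effects that differed in size with the same sign, such as those of TGFB on JUP and DSC2 above, are not among the 4. For PKP3 the effect of EGF was 0.38 on PBS and -0.12 on OSM (adjusted p = 0.109 for the latter), and the difference was -0.50 ± 0.090 (edgeR's quasi-likelihood test, adjusted p = 7.01e-05). The effect of TGFB on EGF+OSM minus its effect on PBS was 0.50 ± 0.10 for DSC3 (adjusted p = 0.000234), where TGFB gave -0.12 on PBS and 0.38 on EGF+OSM. The same difference was 0.75 ± 0.18 for DSG3 (adjusted p = 0.00165), from -0.26 on PBS and 0.49 on EGF+OSM. For PKP1 it was 2.36 ± 0.28 (adjusted p = 3.14e-07), from -0.0087 on PBS and 2.36 on EGF+OSM, at levels of 0.453 to 7.98 CPM. The sign of the PKP1 effect on PBS changed when single libraries were left out (-0.10 to 0.085). Of the effects on PBS, that of TGFB did not pass the test for DSC3, DSG3 or PKP1. The groups of 3 are too small for a test of outlying libraries.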

How the results depend on the processing

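Of 19 counts of called genes over all alternatives, 17 stayed within 1.5 times. The count of departures for EGF+OSM was 2 with the replicate block (DSG3, 0.29, adjusted p = 0.0066, was added), and 1 to 2 when single libraries were left out. For OSM+TGFB it was 0 without a filter on low counts, 2 with only the groups compared, 2 with the replicate block, and 0 to 2 when single libraries were left out. Single values changed sign for DSG2 with OSM against PBS (-0.0022 with upper-quartile scaling), and when single libraries were left out for DSG2 (-0.012 to 0.10), PKP1 with TGFB (-0.10 to 0.085) and PKP2 with TGFB (-0.081 to 0.0098). None of these was called, and of 39 further values called under no setting, 18 changed sign in at least 1 setting. JUP with EGF+TGFB did not pass without the filter (-0.24, adjusted p = 0.0696), and the JUP departure for OSM+TGFB did not either (0.41, adjusted p = 0.0781). With only the groups compared, departures of DSG2 with all 3 ligands (0.23, adjusted p = 0.123) and of DSC3 with EGF+TGFB (0.22, adjusted p = 0.113) were lost. Calls gained by leaving out a library, beside those in the text, were DSC3 and DSP with TGFB on EGF (without EGF replicate 2 or EGF+TGFB replicate 3), PKP3 with EGF on OSM (EGF+OSM replicate 1), PKP1 for OSM against EGF (EGF replicate 2 or OSM replicate 1), PKP2 for OSM+TGFB against PBS (OSM+TGFB replicate 3), DSG2 for PBS against T0 (T0 replicate 3), and the departures of DSG2 for EGF+TGFB (EGF+TGFB replicate 3 or PBS replicate 3) and PKP2 for OSM+TGFB (OSM replicate 2 or OSM+TGFB replicate 3). With upper-quartile scaling, PKP2 for OSM+TGFB against PBS was called lower too, which brought that count to 10. The causes of these changes were not tested.

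The labels do not say whether replicate numbers pair the libraries, and the main fit did not use these numbers. Deviations of same-numbered libraries correlated at -0.027 to 0.18, with a median of 0.057 and 23 of 108 pairs over 0.1, and those of differently numbered libraries had a median of -0.035 with 1 of 216 over 0.1. As a hint from the data only, 25 of 27 libraries correlated best with their own number. The replicate block brought DSG3 with TGFB against PBS (-0.26, adjusted p = 0.000946) past the threshold. With it TGFB on EGF changed 6 genes in place of 4, with DSC3 (0.16, adjusted p = 0.0355) and DSG3 (-0.23, adjusted p = 0.00149) added, and the EGF+TGFB departures were 4 in place of 3, with DSG2 (0.20, adjusted p = 0.0376) added. At DSG1 levels of 2 or 3 counts per group, differences between EGF+OSM and EGF+OSM+TGFB are not detectable.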

Other observations

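With EGF+OSM, 37.6% of all symbols tested rose and 39.6% fell (median log2 fold change -0.049), and with all 3 ligands 37.7% rose and 36.7% fell. Among 16 keratins, whose filaments desmosomes anchor, 6 rose and 9 fell with EGF+OSM (median log2 fold change -0.51), by edgeR's quasi-likelihood test. KRT15, a keratin of basal cells, was at 1580.0 ± 153 CPM in PBS, 387 ± 34.1 with TGFB, 82.7 ± 24.2 with EGF, 166 ± 77.9 with OSM and 7.58 ± 1.69 with all 3 ligands (SD, n = 3). KRT13, a keratin of mucosal epithelia, was at 100.6 ± 14.96 CPM in PBS, 20.8 ± 3.02 with TGFB and 1.796 ± 0.737 with OSM, and KRT4, its partner, at 112 ± 22.9, 24.3 ± 10.8 and 0.661 ± 0.313 CPM. KRT1, a keratin of differentiating epidermis, was at 92.2 ± 15.8, 8.54 ± 4.95 and 0.386 ± 0.139 CPM in these groups. These 4 were picked by a rule for their large changes. With TGFB, 7 of the 16 keratins rose and 6 fell, with a median of 0.098, beside 19.9% and 15.8% of all symbols.

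Of 12 adherens junction genes, 6 rose (37.6% of all symbols did) and 5 fell (39.6%) with EGF+OSM. With all 3 ligands 8 rose (37.7%) and 1 fell (36.7%). NECTIN4, a nectin of epithelial junctions, was at 94.5 ± 6.06 CPM in PBS, 18.2 ± 5.63 with EGF+OSM and 94.1 ± 13.8 with all 3 (SD, n = 3). CDH3 (P-cadherin) was at 480.1 ± 11.6, 639 ± 85.5 and 1598 ± 129.6 CPM, and VCL (vinculin) at 201 ± 3.84, 349.5 ± 19.9 and 799.9 ± 25.8 CPM. PLEKHA7 was at 40.4 ± 2.47, 8.39 ± 1.98 and 16.0 ± 1.62 CPM. Of 4 proteases that cleave desmosomal cadherins, all 4 fell with EGF+OSM, KLK7 from 168 ± 39.4 to 9.46 ± 3.82 CPM, KLK5 from 36.2 ± 8.31 to 3.54 ± 1.61 CPM, ADAM10 from 172 ± 3.98 to 112 ± 2.99 CPM and ADAM17 from 60.4 ± 1.72 to 46.0 ± 0.869 CPM. Of 6 transcription factors known as repressors of epithelial genes, 3 rose and 2 fell with EGF+OSM. SNAI1 was at 0.182 ± 0.0383 CPM in PBS, 14.9 ± 1.28 with OSM, 3.62 ± 0.790 with EGF+OSM and 52.4 ± 4.81 with all 3 ligands, and ZEB1 at 2.37 ± 0.266, 5.84 ± 0.847, 8.89 ± 0.717 and 15.1 ± 1.43 CPM. ZEB2 and TWIST1 fell with EGF+OSM, from 22.0 ± 3.63 to 4.14 ± 0.574 CPM and from 16.9 ± 0.591 to 4.59 ± 0.397 CPM.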
